A study of Homo sapiens with 2 samples.

Results

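Genes that carry out mitosis were compared between 2 libraries of G401 cells, an established human line of a kidney rhabdoid tumor. The set held 56 genes out of 23456 gene symbols in the tables, chosen by name for their roles: mitotic cyclins and kinases, spindle checkpoint, kinetochore, kinesin, condensin and cytokinesis genes. The choice was made with earlier results of these data known, so the set is not independent of them. One of these libraries came from cells with guide 1 against HOXB13, a gene for a homeobox transcription factor. The other came from cells with a control guide. The sg of the labels is taken as a single guide RNA of a CRISPR system, and the labels name no nuclease. All cells grew in RPMI medium with 15% serum up to 80% confluency, and ribosomal RNA was depleted before Ion PI library preparation. The labels do not say whether the cells were a clone or a pool, or how long they carried the guide. With 1 library for each guide, differences could not be set against replicates and no p-value was computed.

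Expression was given as FPKM, in which fragment numbers are divided by the length of the transcript and by library depth. A ratio here means the log2 difference in FPKM + 1 between the libraries, HOXB13 guide over control guide, so 1 stands for 2-fold higher in HOXB13-guide cells. A gene entered comparisons at 1 FPKM or more in either library, which 11970 genes did, all 56 mitotic genes among them. HOXB13 itself had 4.50 FPKM in HOXB13-guide cells and 14.6 FPKM in control cells. SMARCB1, lost in most rhabdoid tumors, had 0.0577 FPKM in HOXB13-guide cells and 0.113 FPKM in control cells. Of 9 markers of leukocytes, endothelium and fibroblasts, 8 were at or below 0.145 FPKM in both libraries, and PDGFRB had 20.4 FPKM in HOXB13-guide cells and 11.6 FPKM in control cells. Steps between low FPKM values put the depth at about 23.6 M reads (M for mega) in the HOXB13-guide library and 24.1 M in the control library.

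Entry into mitosis is driven by CDK1 bound to cyclins A and B, after CDC25 phosphatases remove its inhibitory phosphates. The spindle checkpoint, built on unattached kinetochores, holds back CDC20 and the anaphase-promoting complex (APC/C), an E3 ubiquitin ligase, until every chromosome is attached. The complex then marks securin and cyclin B for destruction, chromatids part, and the midzone and contractile ring divide the cell. Many of these genes are transcribed together in G2 and M phase under FOXM1, MYBL2 and the MuvB complex, which binds the cell cycle homology region (CHR), and under NF-Y, which binds the CCAAT box.

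Most mitotic mRNAs were modestly higher in HOXB13-guide cells, less so when centred on housekeeping genes. Ratios lay above 0 for 45 of the 56 genes, or 80.4%, against 45.6% of all 11970 genes, and the median ratio was 0.39 against −0.05 for all genes. A ratio of 2-fold or more was reached by 7 of the 56 (12.5%), against 4.25% of all genes. They were the cytokinesis gene ANLN, the proliferation antigen MKI67, the tubulin TUBB4B, the kinetochore gene SPC24, the checkpoint gene MAD2L1, the condensin subunit NCAPH and the APC/C activator CDC20. None of the 56 was 2-fold lower, against 4.51% of all genes. The quartiles of the set were 0.08 and 0.60, and its full range ran from −0.70 (CKS1B) to 1.49 (ANLN). Summed over the set, the level was 2778 FPKM in HOXB13-guide cells and 2142 FPKM in control cells, which was 0.530% and 0.413% of all FPKM in those libraries.

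These counts depend on the scale chosen. Housekeeping genes, 25 of them, had a median ratio of 0.31 in the same direction. Of these, 18 lay above 0 (72%, against 45.6% of all genes), and their part in the result was not tested. When ratios were centred on that housekeeping median, 2 mitotic genes were 2-fold higher, 1 was 2-fold lower, 36 lay above 0 and the median was 0.086. With the same centring 2.38% of all genes were 2-fold higher, 10.5% were 2-fold lower and 23.8% lay above 0, with a median of −0.36. The centring takes the same constant from every ratio, so the distance between mitotic genes and all genes is as before. In bulk RNA a larger share of cells in G2 or M phase and more mitotic mRNA per such cell cannot be told apart.

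**Figure D1:**
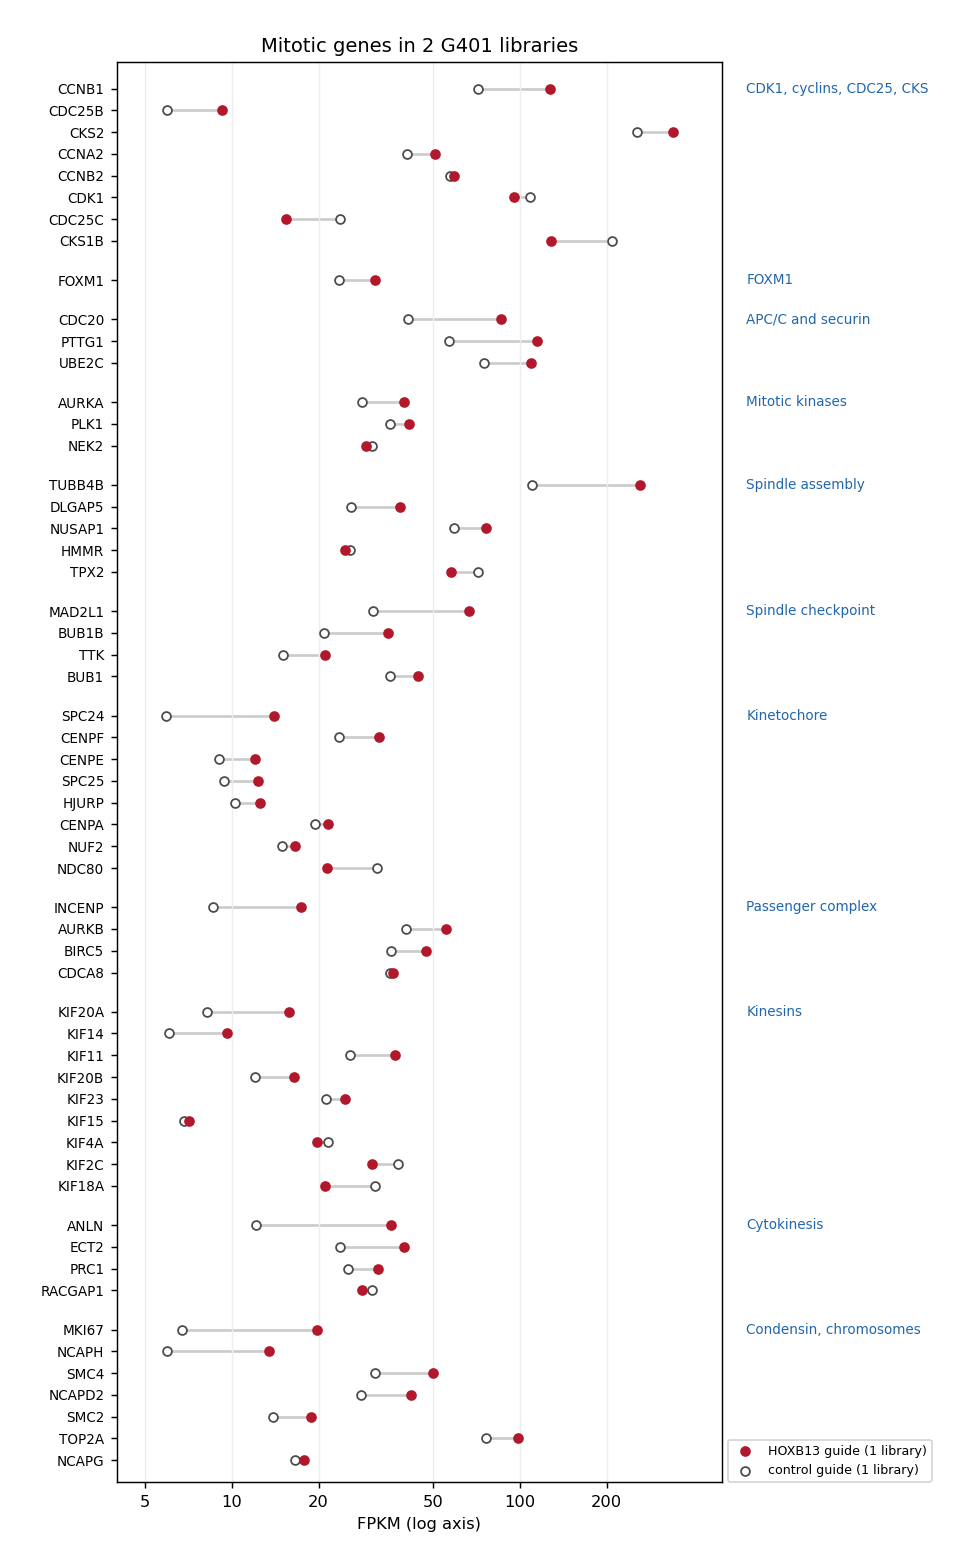
FPKM of each mitotic gene (log axis) in the HOXB13-guide library (filled) and the control library (open), 1 library each, grouped by function and ordered by ratio. Filled points lie to the right of open points for 45 of 56 genes, against 45.6% of all genes. When centred on housekeeping genes, 36 of the 56 have a ratio above 0, against 23.8% of all genes. The widest gaps to the left are those of CKS1B, CDC25C, KIF18A and NDC80.

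Levels ranged widely within the set and kept much of their order. In HOXB13-guide cells the lowest was 7.10 FPKM (KIF15), the median 32.3 and the highest 339 (CKS2). In control cells the lowest was 5.90 FPKM (SPC24), the median 25.9 and the highest 254.7 (CKS2). Over all 11970 genes the median was lower, at 11.6 FPKM in HOXB13-guide cells and 11.9 in control cells. Across the 56 genes the levels in the 2 libraries correlated with Spearman's rho of 0.906, a description of genes that share libraries. The ratio had a rho of −0.06 with mean level and 0.20 with transcript length. Read numbers were taken from the estimated depth and the longest coding transcript of each gene in GENCODE 29. By these the mitotic genes stood on about 261 reads (SPC25 in control cells) to 12885 reads (TOP2A in HOXB13-guide cells). Counting error alone then gave the ratio an SD of 0.0191 (TOP2A) to 0.119 (SPC25), and 48 of the 56 ratios were more than 2 such SDs from 0. The same count was not made over all genes, so it cannot be read as a trait of the mitotic genes. Those SDs are for a ratio without the added 1 FPKM, were set against ratios with it, and hold no variation between cultures. Where the FPKM rested on a shorter transcript, the reads are overstated and the SDs too small. The loci of 7 mitotic genes (CCNA2, KIF20A, PRC1, ANLN, NCAPG, FOXM1 and TUBB4B) overlap another gene at 1 FPKM or more, and since strand was not stated their reads cannot be told apart from those of the neighbour. Coordinates of whole genes given with their values are in hg19.

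Promoters of these genes were read for the CHR and the CCAAT box, because the genes are known to be transcribed together. RefSeq promoters (GRCh38.p14, from 250 bases before to 50 bases after the start) were found for 49 of the 56. AURKA, TPX2, TTK, BIRC5, RACGAP1, UBE2C and FOXM1 were not matched. On either strand, TTTGAA, the core of the CHR, stood in a promoter of 37 of the 49 genes (75.5%), against 18.2% of 27305 genes with a promoter and 12.8% of the 8751 of these at 1 FPKM or more. CCAAT stood in 39 of the 49 (79.6%), against 39.7% and 43.5%, and at least 2 copies in 27 (55.1%), against 12.9% and 16.6%. Both motifs shared a promoter in 29 genes (59.2%), against 7.26% and 5.42%. The TTCGAA variant of the CHR was in 3 of the 49, against 1.82% of all genes. A DNA replication list, whose genes act earlier in the cycle, held TTTGAA in 1 of 38 genes (2.63%) and CCAAT in 22 (57.9%). A match is a string in a window and not a shown binding site.

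The 7 promoters below are those of genes toward either end of the range of ratios and of the cyclin B pair. Each shows the 150 bases before the start on the gene's strand, in GRCh38.p14 coordinates, with every TTTGAA or CCAAT on either strand (TTCAAA and ATTGG when reversed) in capitals. In the MKI67 promoter a TTTGAA and a reversed CCAAT share a base.
ANLN (chr7:36389712-36389861, plus strand): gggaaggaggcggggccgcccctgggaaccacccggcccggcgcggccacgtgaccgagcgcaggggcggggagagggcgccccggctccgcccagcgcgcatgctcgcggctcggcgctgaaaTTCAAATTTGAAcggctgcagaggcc
MKI67 (chr10:128126424-128126573, minus strand): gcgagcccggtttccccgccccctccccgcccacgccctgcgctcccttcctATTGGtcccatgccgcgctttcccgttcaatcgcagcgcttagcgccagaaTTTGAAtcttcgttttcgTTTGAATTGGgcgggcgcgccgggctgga
CDC20 (chr1:43358831-43358980, plus strand): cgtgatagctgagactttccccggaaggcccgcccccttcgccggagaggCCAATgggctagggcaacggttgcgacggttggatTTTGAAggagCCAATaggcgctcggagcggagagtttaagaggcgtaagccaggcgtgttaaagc
CCNB1 (chr5:69167000-69167149, plus strand): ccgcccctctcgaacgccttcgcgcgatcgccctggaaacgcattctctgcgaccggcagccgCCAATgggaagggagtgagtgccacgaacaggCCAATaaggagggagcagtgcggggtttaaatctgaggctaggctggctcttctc
CCNB2 (chr15:59104996-59105145, plus strand): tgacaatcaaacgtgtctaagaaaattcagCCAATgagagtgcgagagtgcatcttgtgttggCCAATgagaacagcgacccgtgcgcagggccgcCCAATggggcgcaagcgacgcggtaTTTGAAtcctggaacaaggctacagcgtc
CKS1B (chr1:154974531-154974680, plus strand): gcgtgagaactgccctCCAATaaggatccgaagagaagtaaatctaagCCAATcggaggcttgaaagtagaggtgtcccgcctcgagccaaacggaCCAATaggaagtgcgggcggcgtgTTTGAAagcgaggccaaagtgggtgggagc
KIF18A (chr11:28108157-28108306, minus strand): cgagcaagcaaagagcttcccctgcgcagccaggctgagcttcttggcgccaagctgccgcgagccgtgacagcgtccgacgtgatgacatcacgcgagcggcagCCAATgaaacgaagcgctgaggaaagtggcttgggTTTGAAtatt

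Genes at both ends of the range carried these motifs, but not every gene had both. SPC24, at 1.12, and NCAPH, at 1.05, had CCAAT and no TTTGAA in their windows, and their promoters are not shown. ANLN, with the highest ratio of 1.49, had TTTGAA at 20 and, reversed, at 26 bases before the start and no CCAAT in its window. MKI67, at 1.43, had TTTGAA at 29 and 47 and, reversed, CCAAT at 24 and 98 bases before the start. CKS1B, with the lowest ratio of −0.70, had TTTGAA at 30 bases before the start and, within the stretch shown, CCAAT at 54, 102 and 134. KIF18A, at −0.56, had TTTGAA at 10 and CCAAT at 45 bases before the start. CCNB2, at 0.05, had TTTGAA at 29 and, within the stretch shown, CCAAT at 54, 87 and 120 bases before the start, while CCNB1, at 0.83, had CCAAT at 55 and 87 and no TTTGAA in its window. The median ratio was 0.37 for the 37 genes with TTTGAA and 0.51 for the 12 without, and it was 0.41 for the 39 genes with CCAAT and 0.26 for the 10 without. Of the 37 genes with TTTGAA 5 were 2-fold higher, and of the 12 without it 2 were, against 4.25% of all genes. Of the 39 genes with CCAAT 6 were 2-fold higher, and of the 10 without it 1 was. Genes with and without each motif overlapped in their ratios.

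**Figure D2:**
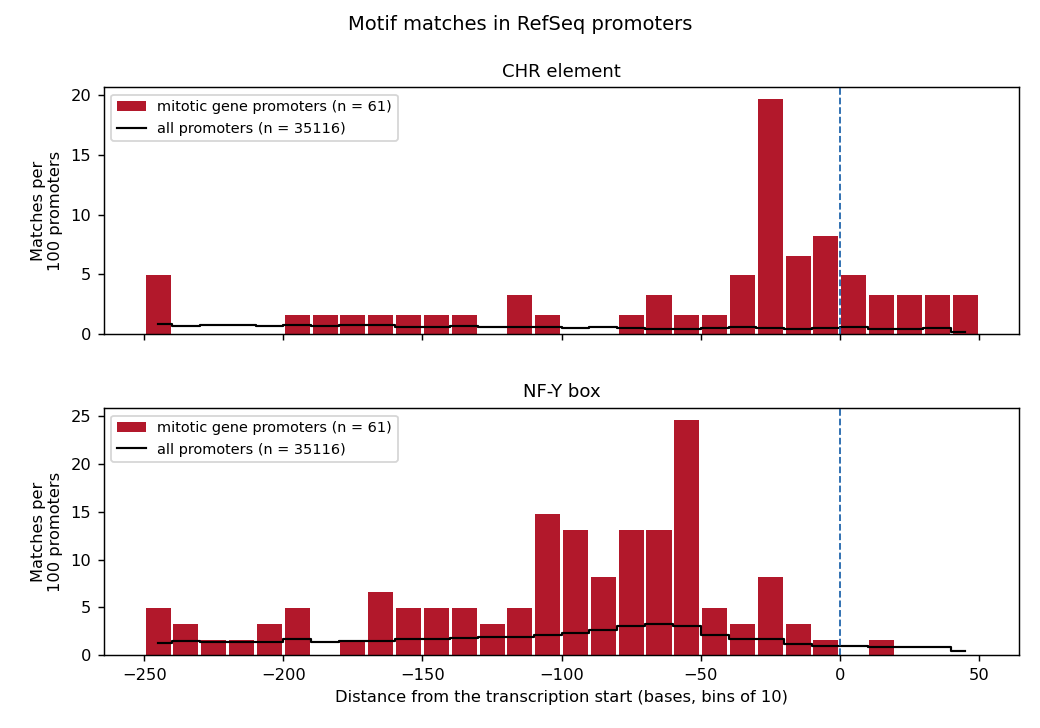
Matches per 100 promoters in bins of 10 bases against distance from the start, for 61 promoters of mitotic genes (bars, 49 genes) and all 35116 RefSeq promoters (line); the upper panel is the CHR core and the lower the NF-Y (CCAAT) box. CHR matches of mitotic genes pile up between 30 and 21 bases before the start (19.7 per 100 promoters), and NF-Y boxes between 60 and 51 bases before it (24.6 per 100). All promoters have 0.552 and 3.03 per 100 in the same bins. Their NF-Y boxes are also densest in this region, with 3.25 per 100 in the bin centred at −65.

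The CDK1 engine went both ways. CDK1, the kinase of mitotic entry, had 95.5 FPKM in HOXB13-guide cells and 108 in control cells (ratio −0.18). Cyclin B1 (CCNB1) had 127 and 71.3 FPKM in HOXB13-guide and control cells (ratio 0.83), the highest ratio of the group. Cyclin B2 (CCNB2), its close relative, had 59.2 FPKM in HOXB13-guide cells and 57.3 in control cells (0.05). Cyclin A2 (CCNA2), which serves S and G2 phase, had 50.7 FPKM in HOXB13-guide cells and 40.4 in control cells (0.32). CCNB1 mRNA was thus 2.15 times CCNB2 mRNA in HOXB13-guide cells and 1.24 times in control cells. Relative to CDK1 it was 1.33 and 0.658 times in HOXB13-guide and control cells.

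The partners that switch CDK1 on were split between relatives. CDC25B, a phosphatase that starts CDK1 activation, had 9.28 FPKM in HOXB13-guide cells and 5.95 in control cells (0.57). CDC25C, the relative that acts in the feedback loop at mitotic entry, had 15.4 FPKM in HOXB13-guide cells and 23.8 in control cells (−0.60). The CDK-binding adaptor CKS2 had 339 FPKM in HOXB13-guide cells and 254.7 in control cells (0.41). CKS1B, its paralog, which also helps the SKP2 ligase to degrade the CDK inhibitor p27, had 128 FPKM in HOXB13-guide cells and 208 in control cells (−0.70). This was the lowest ratio of all 56 genes, and when centred on housekeeping genes it was −1.01. The sum of both CKS mRNAs was 467 FPKM in HOXB13-guide cells and 463 in control cells, with CKS2 making up 72.6% and 55.0% of it. Over the 8 genes of the engine the median was 0.18, with 5 above 0 (62.5%, against 45.6% of all genes). When centred on housekeeping genes the median was −0.12, against −0.36 for all genes.

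Of 3 genes of anaphase onset, CDC20 was past 2-fold and PTTG1 and UBE2C were not. CDC20 (chr1:43824626-43828873), which activates the APC/C, had 86.2 FPKM in HOXB13-guide cells and 40.9 in control cells (1.06). PTTG1, or securin, which restrains separase, had 114 FPKM in HOXB13-guide cells and 56.8 in control cells, a ratio of 0.996 that lay just under 2-fold with the pseudocount and was 2.01-fold without it. Without the pseudocount 6.18% of all genes were at least 2-fold higher, and 9 mitotic genes were, with PTTG1 and INCENP added to the 7. The near copies of PTTG1, PTTG2 and PTTG3P, were listed at 0 in both libraries. UBE2C, the ubiquitin-conjugating enzyme of the APC/C, had 109 FPKM in HOXB13-guide cells and 75.1 in control cells (0.54). All 3 genes lay above 0 in every setting tried. The other 17 genes of the complex and its regulators had a median of 0.04, with 10 above 0 (58.8%, against 45.6% of all genes). None was past 2-fold in either direction. Their median was −0.27 when centred on housekeeping genes, against −0.36 for all genes. The lowest of them was ANAPC10, an APC/C subunit, with 11.9 FPKM in HOXB13-guide cells and 21.4 in control cells (−0.80).

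All 4 spindle checkpoint genes had ratios above 0, against 45.6% of all genes. When centred on housekeeping genes the 4 stayed above 0, against 23.8% of all genes, but BUB1 was only at 0.013. MAD2L1 (chr4:120980579-120988013), which codes for the MAD2 protein that binds CDC20, had 66.5 FPKM in HOXB13-guide cells and 30.8 in control cells (1.09). BUB1B, the BubR1 subunit of the mitotic checkpoint complex, had 34.7 FPKM in HOXB13-guide cells and 20.98 in control cells (0.70). TTK, the kinase that starts checkpoint signalling, had 21.1 FPKM in HOXB13-guide cells and 15.1 in control cells (0.46), and BUB1, a kinase of the kinetochore, had 44.3 and 35.3 (0.32). Beside its target CDC20, MAD2L1 held close to the same proportion in each library, while BUB1B did less so. MAD2L1 was 0.772 times CDC20 in HOXB13-guide cells and 0.753 times in control cells, and BUB1B was 0.403 and 0.513 times CDC20.

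Kinetochore genes were close to one another except at the NDC80 complex, the rod that grips spindle microtubules. SPC24 (chr19:11257831-11266484) had 14.02 FPKM in HOXB13-guide cells and 5.90 in control cells (1.12), whereas NDC80 (chr18:2571510-2616634) had 21.4 in HOXB13-guide cells and 31.8 in control cells (−0.55). NUF2 had 16.5 FPKM in HOXB13-guide cells and 14.9 in control cells (0.14), and SPC25 had 12.3 and 9.44 (0.35). The summed level of the 4 subunits was 64.3 FPKM in HOXB13-guide cells and 62.1 in control cells. Its make-up differed: the highest subunit was 1.73 times the lowest in HOXB13-guide cells and 5.39 times in control cells. SPC24 and NDC80, the subunits with the highest and lowest ratio, were paired after their values were seen. SPC24 was 0.656 times NDC80 in HOXB13-guide cells and 0.186 times in control cells. Such proportions within a library do not change with the scaling of the libraries.

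The remaining centromere genes had small ratios. The centromeric histone CENPA had 21.7 FPKM in HOXB13-guide cells and 19.4 in control cells (0.15), and its chaperone HJURP had 12.6 and 10.3 (0.27). CENPE, a kinesin that carries chromosomes to the spindle equator, had 11.997 FPKM in HOXB13-guide cells and 9.04 in control cells (0.37), and CENPF, a large kinetochore protein, had 32.3 and 23.7 (0.43). In all, 7 of 8 kinetochore genes lay above 0 with a median of 0.31, which was 0.005 when centred on housekeeping genes. Of 31 other kinetochore genes, 26 lay above 0 (83.9%, against 45.6% of all genes) and none was 2-fold lower. A single 1 was 2-fold higher (3.23%, against 4.25% of all genes). It was CENPI, of the constitutive centromere network, with 8.91 FPKM in HOXB13-guide cells and 3.37 in control cells. Their median of 0.30 was −0.003 when centred on housekeeping genes, where that of all genes was −0.36.

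**Figure D3:**
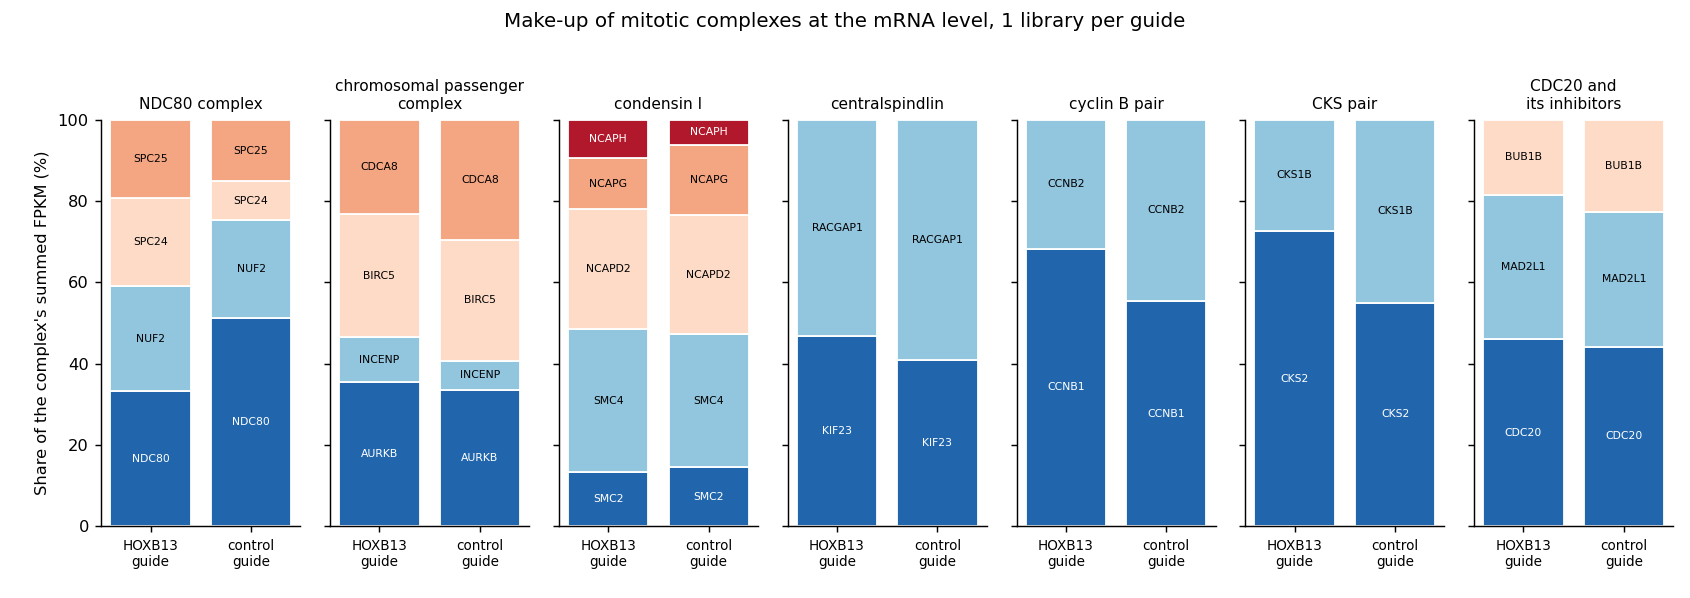
Share of each subunit or partner in the summed FPKM of its complex or pair (percent, stacked to 100), HOXB13-guide library left and control library right in each panel, 1 library each. SPC24 took 21.8% and NDC80 33.3% of the NDC80 complex in HOXB13-guide cells, against 9.50% and 51.2% in control cells, while CDC20 took 46.0% and 44.1% of its sum with MAD2L1 and BUB1B in HOXB13-guide and control cells.

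The chromosomal passenger complex, which corrects wrong attachments, had its highest ratio at its scaffold. INCENP, the scaffold, had 17.4 FPKM in HOXB13-guide cells and 8.60 in control cells (0.94, or 2.02-fold without the pseudocount). The kinase AURKB had 55.2 FPKM in HOXB13-guide cells and 40.3 in control cells (0.45). BIRC5, or survivin, had 47.0 FPKM in HOXB13-guide cells and 35.8 in control cells (0.38), and CDCA8, or borealin, had 36.3 and 35.5 (0.03). When centred on housekeeping genes the ratio was 0.63 for INCENP, 0.14 for AURKB, 0.077 for BIRC5 and −0.28 for CDCA8. INCENP was the least abundant of the 4 in both libraries, with 11.1% of their summed FPKM in HOXB13-guide cells and 7.16% in control cells.

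Mitotic kinases and FOXM1 had ratios under 0.5. AURKA, the centrosomal Aurora kinase, had 39.7 FPKM in HOXB13-guide cells and 28.2 in control cells (0.48). PLK1, which acts from centrosome maturation to cytokinesis, had 41.3 FPKM in HOXB13-guide cells and 35.3 in control cells (0.22), and NEK2, which separates centrosomes, had 29.1 and 30.6 (−0.07). FOXM1, which activates transcription of many genes of the set, had 31.5 FPKM in HOXB13-guide cells and 23.5 in control cells (0.40). Its locus overlaps 898 bases of the neighbour RHNO1, at 23.9 FPKM in HOXB13-guide cells and 38.0 in control cells.

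Spindle assembly genes ran from −0.30 to 1.24. TUBB4B (chr9:140135711-140138159), a beta-tubulin, had 262 FPKM in HOXB13-guide cells and 110 in control cells (1.24), although beta-tubulin genes are near-identical in parts and their reads may be split. DLGAP5, which stabilizes kinetochore fibres, had 38.2 FPKM in HOXB13-guide cells and 25.9 in control cells (0.54), and NUSAP1, which bundles microtubules near chromosomes, had 76.5 and 59.0 (0.37). TPX2, which activates AURKA on the spindle, had 57.7 FPKM in HOXB13-guide cells and 71.4 in control cells (−0.30). TPX2 was thus 1.45 times AURKA in HOXB13-guide cells and 2.53 times in control cells. HMMR, a spindle-associated protein, had 24.8 FPKM in HOXB13-guide cells and 25.8 in control cells (−0.06), and its ratio changed sign under scaling by a trimmed mean.

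Mitotic kinesins, the motors of the spindle, had no member past 2-fold and spread to both sides of 0. KIF20A, which moves the passenger complex to the midzone, had 15.8 FPKM in HOXB13-guide cells and 8.23 in control cells (0.86). KIF14, a motor of cytokinesis, had 9.66 FPKM in HOXB13-guide cells and 6.08 in control cells (0.59), and KIF11, which pushes spindle poles apart, had 37.0 and 25.7 (0.51). KIF20B, also of cytokinesis, had 16.4 FPKM in HOXB13-guide cells and 12.04 in control cells (0.41). The other motors of this kind were KIF23 of the midzone, with 24.8 FPKM in HOXB13-guide cells and 21.3 in control cells (0.21), and KIF15, which backs up KIF11, with 7.10 and 6.84 (0.05).

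The remaining 3 kinesins of the set had ratios below 0. KIF18A, which damps chromosome movement at the plate, had 21.1 FPKM in HOXB13-guide cells and 31.5 in control cells (−0.56). KIF2C, which takes microtubule ends apart, had 30.7 FPKM in HOXB13-guide cells and 37.9 in control cells (−0.30), and KIF4A, a chromokinesin, had 19.8 and 21.5 (−0.12). Of the 9 kinesins 6 lay above 0 with a median of 0.21, which was −0.10 when centred on housekeeping genes, against −0.36 for all genes. KIF20A and KIF18A, the kinesins of the set with the highest and lowest ratio, were paired after their values were seen. KIF20A was 0.748 times KIF18A in HOXB13-guide cells and 0.261 times in control cells. Other mitotic kinesins had 4 of 5 above 0, none past 2-fold, and a median of 0.25 (−0.06 when centred on housekeeping genes). Kinesins of transport, 25 of them, had 10 above 0 (40%) and a median of −0.14, near the 45.6% and −0.05 of all genes.

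Cytokinesis held the gene with the highest ratio of the set. ANLN (chr7:36429432-36493400), or anillin, which ties the contractile ring to the membrane, had 35.8 FPKM in HOXB13-guide cells and 12.1 in control cells (1.49). Its locus overlaps KIAA0895 by 303 bases, a gene at 12.6 FPKM in HOXB13-guide cells and 7.77 in control cells. ECT2, the exchange factor that switches on RhoA at the ring, had 39.5 FPKM in HOXB13-guide cells and 23.8 in control cells (0.71). PRC1, which bundles midzone microtubules, had 32.3 and 25.3 FPKM in HOXB13-guide and control cells (0.34). RACGAP1, which recruits ECT2, had 28.3 FPKM in HOXB13-guide cells and 30.7 in control cells (−0.12). ANLN and RACGAP1, with the highest and lowest ratio of the group, were paired after their values were seen. ANLN was 1.27 times RACGAP1 in HOXB13-guide cells and 0.395 times in control cells.

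The 7 condensin and chromosome structure genes all had ratios above 0, against 45.6% of all genes. When centred on housekeeping genes NCAPG was at −0.21, and 23.8% of all genes lay above 0. MKI67 (chr10:129894925-129924468), the Ki-67 protein that coats mitotic chromosomes, had 19.8 FPKM in HOXB13-guide cells and 6.72 in control cells (1.43). With ANLN it was the only gene of the set past 2-fold in the main setting and all 10 alternatives. NCAPH (chr2:97001484-97041274), the kleisin that closes the condensin I ring, had 13.4 FPKM in HOXB13-guide cells and 5.98 in control cells (1.05). The condensin ATPases SMC4 and SMC2 had 49.9 and 18.9 FPKM in HOXB13-guide cells, against 31.5 and 13.9 in control cells (0.65 and 0.41).

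The other condensin I subunits and topoisomerase II had smaller ratios. NCAPD2 had 41.8 FPKM in HOXB13-guide cells and 28.1 in control cells (0.56), and NCAPG had 17.8 and 16.6 (0.10). NCAPH and NCAPG, the condensin I subunits with the highest and lowest ratio, were paired after their values were seen. NCAPH was 0.756 times NCAPG in HOXB13-guide cells and 0.361 times in control cells. TOP2A, which untangles chromatids, had 98.4 FPKM in HOXB13-guide cells and 76.0 in control cells (0.37). TOP2A was 4.97 times MKI67 in HOXB13-guide cells and 11.3 times in control cells, though both mark proliferating cells. The group median was 0.56 (0.25 when centred on housekeeping genes). Of 4 genes of the condensin II list, which also holds TOP2B, 3 lay above 0 (75%, against 45.6% of all genes). Only NCAPG2 was past 2-fold (25%, against 4.25% of all genes), with 27.1 FPKM in HOXB13-guide cells and 12.8 in control cells (1.02).

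**Figure D4:**
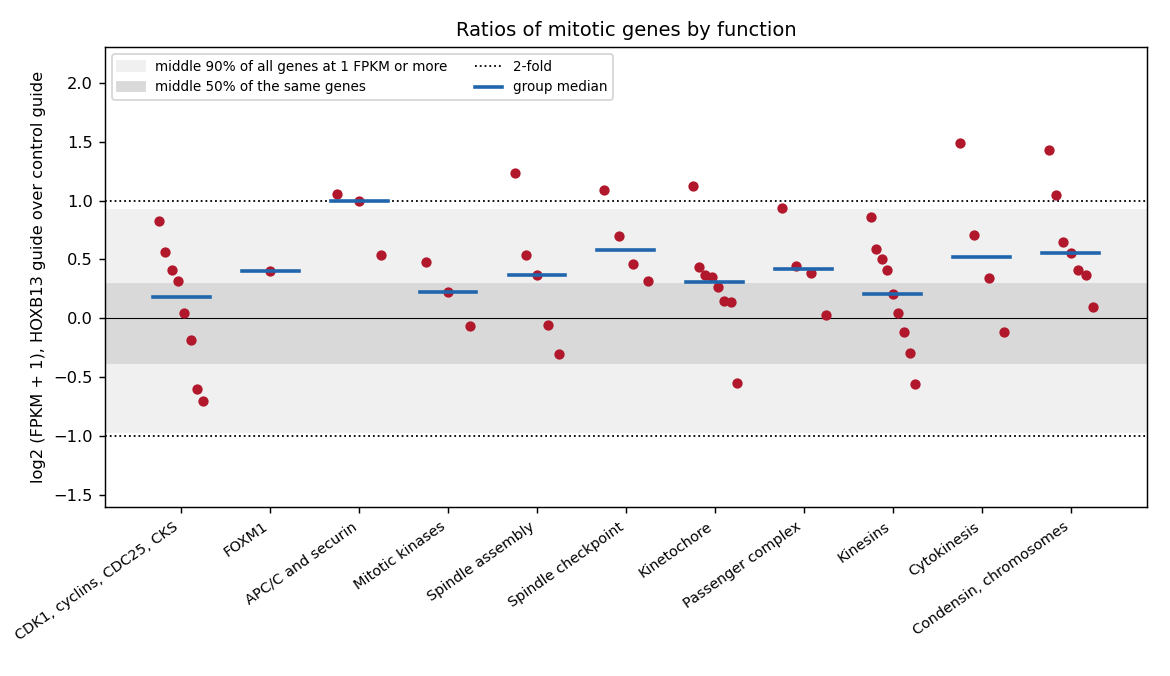
Ratio (log2 of FPKM + 1, HOXB13 guide over control guide) of each mitotic gene by function, with group medians (bars), the middle 50% and 90% of all 11970 genes (shaded) and 2-fold (dotted). Group medians run from 0.18 for CDK1 and its partners to 0.996 for the group labelled APC/C and securin, which holds only CDC20, PTTG1 and UBE2C. The other 17 genes of that complex and its regulators, not shown here, had a median of 0.04. When centred on housekeeping genes, the medians of CDK1 and partners, mitotic kinases and kinesins are below 0, and that of all genes is −0.36.

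Set beside the DNA replication and G1/S list, the mitotic genes had the smaller ratios. The median was 0.39 for mitotic genes, against 0.88 for 45 replication genes. Of the mitotic genes 7 of 56 (12.5%) passed 2-fold upward, against 19 (42.2%) of the replication genes and 4.25% of all genes. The difference between the lists was not tested. UHRF1, LIG1 and RRM2 led that list at ratios of 1.73, 1.66 and 1.65. Over all genes 45.6% lay above 0. Centrosome genes had 13 of 17 above 0 (76.5%) and a median of 0.21, and cohesin genes 9 of 16 (56.25%) and 0.12. When centred on housekeeping genes these medians were −0.10 and −0.19, against −0.36 for all genes. ESCO2, which acetylates cohesin in S phase, was the cohesin gene past 2-fold, with 9.78 FPKM in HOXB13-guide cells and 3.87 in control cells. Of the checkpoint and G2/M regulators outside the set, 10 of 17 lay above 0 (58.8%). Among them TRIP13, which remodels MAD2, was 2-fold higher with 25.1 FPKM in HOXB13-guide cells and 9.37 in control cells. Regulators of transcription (DREAM, MYB and NF-Y) had 6 of 16 above 0 (37.5%, near the 45.6% of all genes) and none past 2-fold. MYBL2 had 57.9 FPKM in HOXB13-guide cells and 32.9 in control cells (0.79), and NFYB had 21.9 and 36.3 (−0.71).

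**Figure D5:**
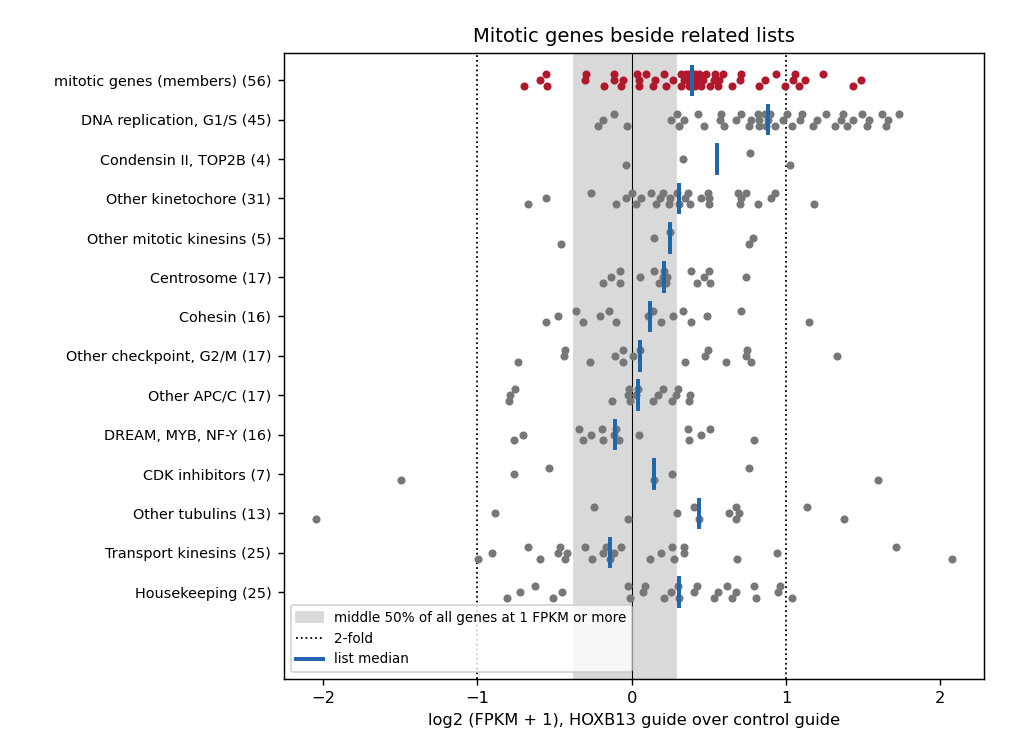
Ratio (log2 of FPKM + 1, HOXB13 guide over control guide) of each gene in the mitotic set and 13 related lists, number of genes in brackets, with list medians (bars), the middle 50% of all genes (shaded) and 2-fold (dotted). The mitotic median of 0.39 lies between the replication median of 0.88 and the housekeeping median of 0.31. When centred on housekeeping genes the mitotic median is 0.086, against −0.36 for all genes.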

How the data were processed

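Both samples were grouped by their titles. The submitters' processing notes list build hg19 and the tools TopHat, Bowtie and Cufflinks; versions, settings and strand mode are not given in the sources used here. The authors deposited 1 table of FPKM per library with 25001 rows, in which 0.001 is the lowest value and was read as 0. Rows sharing a symbol were summed (each of the 56 mitotic genes had 1 row), and 4 symbols with a failed estimate were left out. Values were used unscaled with a pseudocount of 1 FPKM and a minimum of 1 FPKM in either library. With 1 library per group no test was possible: 2-fold is a rule of size. Depth is approximate: 306 of 2396 genes below 0.3 FPKM in both libraries shared the ratio 1.021, taken as that of 1 read, and 72 of 141 single-exon genes gave whole reads at the chosen depth after 204 bases were subtracted from their length. Lengths were those of the longest coding transcript of a gene in GENCODE 29, a GRCh38 annotation. Computation used Python 3.11.15, numpy 2.4.6 and pandas 2.3.3. The ratio code was tested on simulated data without a pseudocount, so that test did not cover the pseudocount, row sums or minimum used here. Another 10 settings of scaling, pseudocount, minimum and row choice were tried. All mitotic genes may be named; from each related list, up to 3 genes with the largest absolute ratio. Members and lists were chosen with earlier results of these data known, and the complexes, gene pairs and printed promoters after their values were seen.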

Additional observations from a re-analysis of the deposited data

How the results depend on the processing

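Of 10 alternatives, centring on the housekeeping median was the one that moved a result on the whole set: it left 2 mitotic genes 2-fold higher and 1 (CKS1B) 2-fold lower. The median of the 56 log2 ratios was then 0.086, and the centring put 9 genes on the other side of 0. By construction it takes 0.31 from every ratio, so the shares of all genes moved too, to 2.38% 2-fold higher, 10.5% 2-fold lower and 23.8% above 0. Under the other 9 (equal total, upper quartile, median centring, trimmed mean, pseudocounts of 0.1 and 0, no minimum, a minimum of 5 FPKM, the highest row of a symbol) 7 to 9 genes were 2-fold higher, none 2-fold lower, 45 or 46 above 0, and the median was 0.38 to 0.45. Over all settings 36 genes kept a ratio above 0 and 10 a ratio below 0. No paired analysis was possible because each group had 1 library. Whole reads could not be rebuilt for every gene, and a count test was not tried.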

Other observations

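Tubulins outside the mitotic set differed by gene. Of 13, TUBB3 (81.0 FPKM in HOXB13-guide cells and 30.5 in control cells) and TUBA1B (721 and 327) were at least 2-fold higher (15.4%, against 4.25% of all genes). TUBE1, an epsilon-tubulin, was more than 2-fold lower at a ratio of −2.05, with 5.13 FPKM in HOXB13-guide cells and 24.4 in control cells. Among transport kinesins, KIF5C had 5.99 FPKM in HOXB13-guide cells and 0.659 in control cells, and KIF26B had 2.68 and 0.123. The CDK inhibitors went both ways: CDKN2C, or p18, had 30.8 FPKM in HOXB13-guide cells and 9.52 in control cells (1.60), whereas CDKN2A had 4.49 and 14.5 (−1.50).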
